A study of Homo sapiens with 7 samples.

Results

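CTCF occupancy was described at 8 genes of erythroid and blood stem cell transcription factors, namely GATA1, GATA2, TAL1, LMO2, LDB1, NFE2, GFI1B and RUNX1, out of 20163 protein-coding genes of the GENCODE annotation of hg19 (GRCh37). A peak was assigned to a gene if it overlapped the annotated gene or lay within 50 kb of it, which gave 52 of 33094 peaks in control cells and 55 of 32917 in cells treated with pyridostatin (PDS). The data were CTCF ChIP-seq of K562, an established leukaemia line labelled erythroleukemia, in which DNA bound by CTCF is recovered with an antibody and sequenced beside a recovery with nonspecific IgG. The 7 samples comprised 2 CTCF and 1 IgG samples of untreated cells (control) and 2 CTCF and 2 IgG samples of cells kept with 10 μM PDS, a small molecule that binds and stabilizes G-quadruplexes (G4s), for 24 h. All came from the same line, grown in low-serum medium according to the labels. Each condition had 1 peak list, which the authors called jointly on both replicates, so that there was no value per replicate, no SD, no sequencing depth and no test between conditions. The fold of a peak was its enrichment over the IgG samples of its own condition. Fold levels were therefore not compared between the lists, and the position of a peak in its own list was used instead: a percentile of 100 marks the highest fold. CDKN2A, which K562 cells are known to have lost, had 0 peaks in both lists within 50 kb (chr9:21967751-21995300). The lists hold no expression, so erythroid markers could not be checked.

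CTCF is a zinc-finger protein that binds a long DNA consensus and, with cohesin, anchors chromatin loops and separates regulatory domains. The genes described here encode factors that cooperate in blood stem cells and red cell precursors: GATA1 and GATA2 bind GATA sites in erythroid cells and in progenitors, respectively, while TAL1, a basic helix-loop-helix factor, is bridged to them by LMO2 and LDB1. NFE2 is the blood-specific subunit of a leucine-zipper activator of globin genes, GFI1B is a zinc-finger repressor of the erythroid and megakaryocyte lineages, and RUNX1 is required for the emergence of blood stem cells. The loci of several of these genes are known for distal enhancers that lie outside the gene, between which CTCF sites can form boundaries.

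DNA under the peaks was searched on both strands of the GRCh37 sequence for the 15-letter CTCF consensus known from ChIP-exo, and for G4 motifs, defined as 4 runs of 3 or more G with loops of 1 to 7 nt. A G4 motif was counted for a peak if any part of it overlapped the peak, so some motifs run past the peak edge. The exact consensus was found at 3 of the 8 genes, in 2 peaks each, and always in both lists. These 6 matches are shown because they identify the sites that carry the full consensus. Each is named by its distance from the start of the MANE Select transcript in the direction of transcription (negative is upstream), and the capitals mark the 15 matching bases within 20 bases of flanking sequence.
TAL1, 52.9 kb (chr1:47644964-47645018, + strand): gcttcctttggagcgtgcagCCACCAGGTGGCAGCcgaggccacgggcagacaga
TAL1, 39.2 kb (chr1:47658719-47658773, + strand): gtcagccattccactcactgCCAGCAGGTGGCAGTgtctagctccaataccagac
LMO2, 83.7 kb (chr11:33829940-33829994, + strand): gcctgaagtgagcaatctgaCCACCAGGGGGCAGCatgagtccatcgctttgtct
LMO2, 34.0 kb (chr11:33879553-33879607, + strand): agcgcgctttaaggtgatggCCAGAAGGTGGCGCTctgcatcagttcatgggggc
GFI1B, -76.7 kb (chr9:135777378-135777432, - strand): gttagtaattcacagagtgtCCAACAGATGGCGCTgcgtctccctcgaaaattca
GFI1B, -0.865 kb (chr9:135853190-135853244, + strand): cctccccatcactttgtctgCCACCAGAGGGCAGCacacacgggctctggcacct
At the other genes, and at the strongest peak of the whole set (GFI1B, 43.8 kb), the best match differed from the consensus at 1 base or more. The following matches with 1 mismatch, in capitals, lay in the strongest control peak of their gene or, at RUNX1, in the strongest PDS peak.
GFI1B, 43.8 kb (chr9:135897881-135897935, + strand): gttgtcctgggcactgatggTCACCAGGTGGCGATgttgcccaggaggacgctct
NFE2, -23.8 kb (chr12:54718554-54718608, - strand): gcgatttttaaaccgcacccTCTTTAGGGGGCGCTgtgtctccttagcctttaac
LDB1, -12.3 kb (chr10:103892365-103892419, + strand): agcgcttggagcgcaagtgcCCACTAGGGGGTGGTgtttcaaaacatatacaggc
RUNX1, -2.11 kb (chr21:36423687-36423741, + strand): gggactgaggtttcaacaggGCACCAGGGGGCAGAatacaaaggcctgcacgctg
GATA2, -4.81 kb (chr3:128216832-128216886, - strand): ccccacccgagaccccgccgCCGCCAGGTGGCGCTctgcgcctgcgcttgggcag
GATA1, -24.6 kb (chrX:48620363-48620417, + strand): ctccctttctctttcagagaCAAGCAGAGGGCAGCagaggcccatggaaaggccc
Examples of the G4 motifs are given on the strand that carries the G runs, which are in capitals. Those shown include 2 of a single peak at GATA2 and 3 at RUNX1.
GATA1, -24.5 kb (chrX:48620456-48620476, + strand): GGGctGGGccGGGGctgaGGG
GATA2, -4.72 kb (chr3:128216757-128216782, - strand): GGGGcggccGGGGagtGGGGGcGGGG
GATA2, -4.75 kb (chr3:128216784-128216805, - strand): GGGGccGGGGccGGGGcaGGGG
TAL1, 39.1 kb (chr1:47658818-47658845, - strand): GGGcaaaagtGGGGGctggaGGGaGGGG
LDB1, 2.82 kb (chr10:103877290-103877316, - strand): GGGagccccaGGGGcccGGGcaGGGGG
NFE2, -23.9 kb (chr12:54718692-54718712, - strand): GGGaGGGttagtGGGGcGGGG
GFI1B, -1.01 kb (chr9:135853061-135853088, + strand): GGGagaaggtGGGGagccaGGGGatGGG
RUNX1, 159 kb (chr21:36262142-36262167, - strand): GGGcccggcaGGGaGGGcgtggaGGG
RUNX1, 159 kb (chr21:36262207-36262229, - strand): GGGGccGGGatccGGGGactGGG
RUNX1, 159 kb (chr21:36262315-36262341, - strand): GGGGGaGGGaggagcGGGcgtcaGGGG
A match describes these letters only. Over the whole lists an exact consensus was present in 17.3% of control and 14.4% of PDS peaks, and a G4 motif in 16.0% and 17.1%, respectively.

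Most peaks at the 8 genes were found in both lists. A peak was called shared if it overlapped a peak of the other list by at least 1 bp, which held for 41 of the 52 control peaks (78.8%, Wilson 95% confidence interval 66.0 to 87.8%) and 41 of the 55 PDS peaks (74.5%, interval 61.7 to 84.2%). The remaining 11 control peaks and 14 PDS peaks were found in 1 list only, against a background of 22.0% of all control peaks and 21.4% of all PDS peaks, so the share at these genes was near that of the lists. The whole lists were shared to 78.0% and 78.6%. A G4 motif was present in 13 control peaks (25%, interval 15.2 to 38.2%) and in 12 PDS peaks (21.8%, interval 12.9 to 34.4%), and both intervals include the shares of the whole lists, 16.0% and 17.1%. The same was true of the exact consensus, found in 6 control peaks (11.5%, interval 5.40 to 23%) and 6 PDS peaks (10.9%, interval 5.10 to 21.8%), against 17.3% and 14.4%. A match with at most 1 mismatch was present in 61.5% of control peaks, against 54.3% over the list, and in 47.3% of PDS peaks, against 46.2%. These intervals cover counting error only, since peaks are not replicates. The fold ranged from 5.86 to 149 in the control list, with a median of 30.8 against 26.5 over the list, and from 4.77 to 47.1 in the PDS list, with a median of 16.2 against 16.7. The median percentile by fold was 62.2 in the control (approximate 95% interval 43.4 to 69.7) and 46.5 in the PDS list (30.7 to 65.9). By p-value it was 66.0 (40.6 to 73.6) and 60.4 (33.8 to 72.5). Thus the PDS median lay below the middle of the list by fold and above it by p-value. Each of these intervals, which likewise cover counting error only, includes the middle of the list, 50. Peaks had a median width of 390 bp in control and 400 bp in PDS-treated cells, against 360 and 300 bp over the lists.

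**Figure D1:**
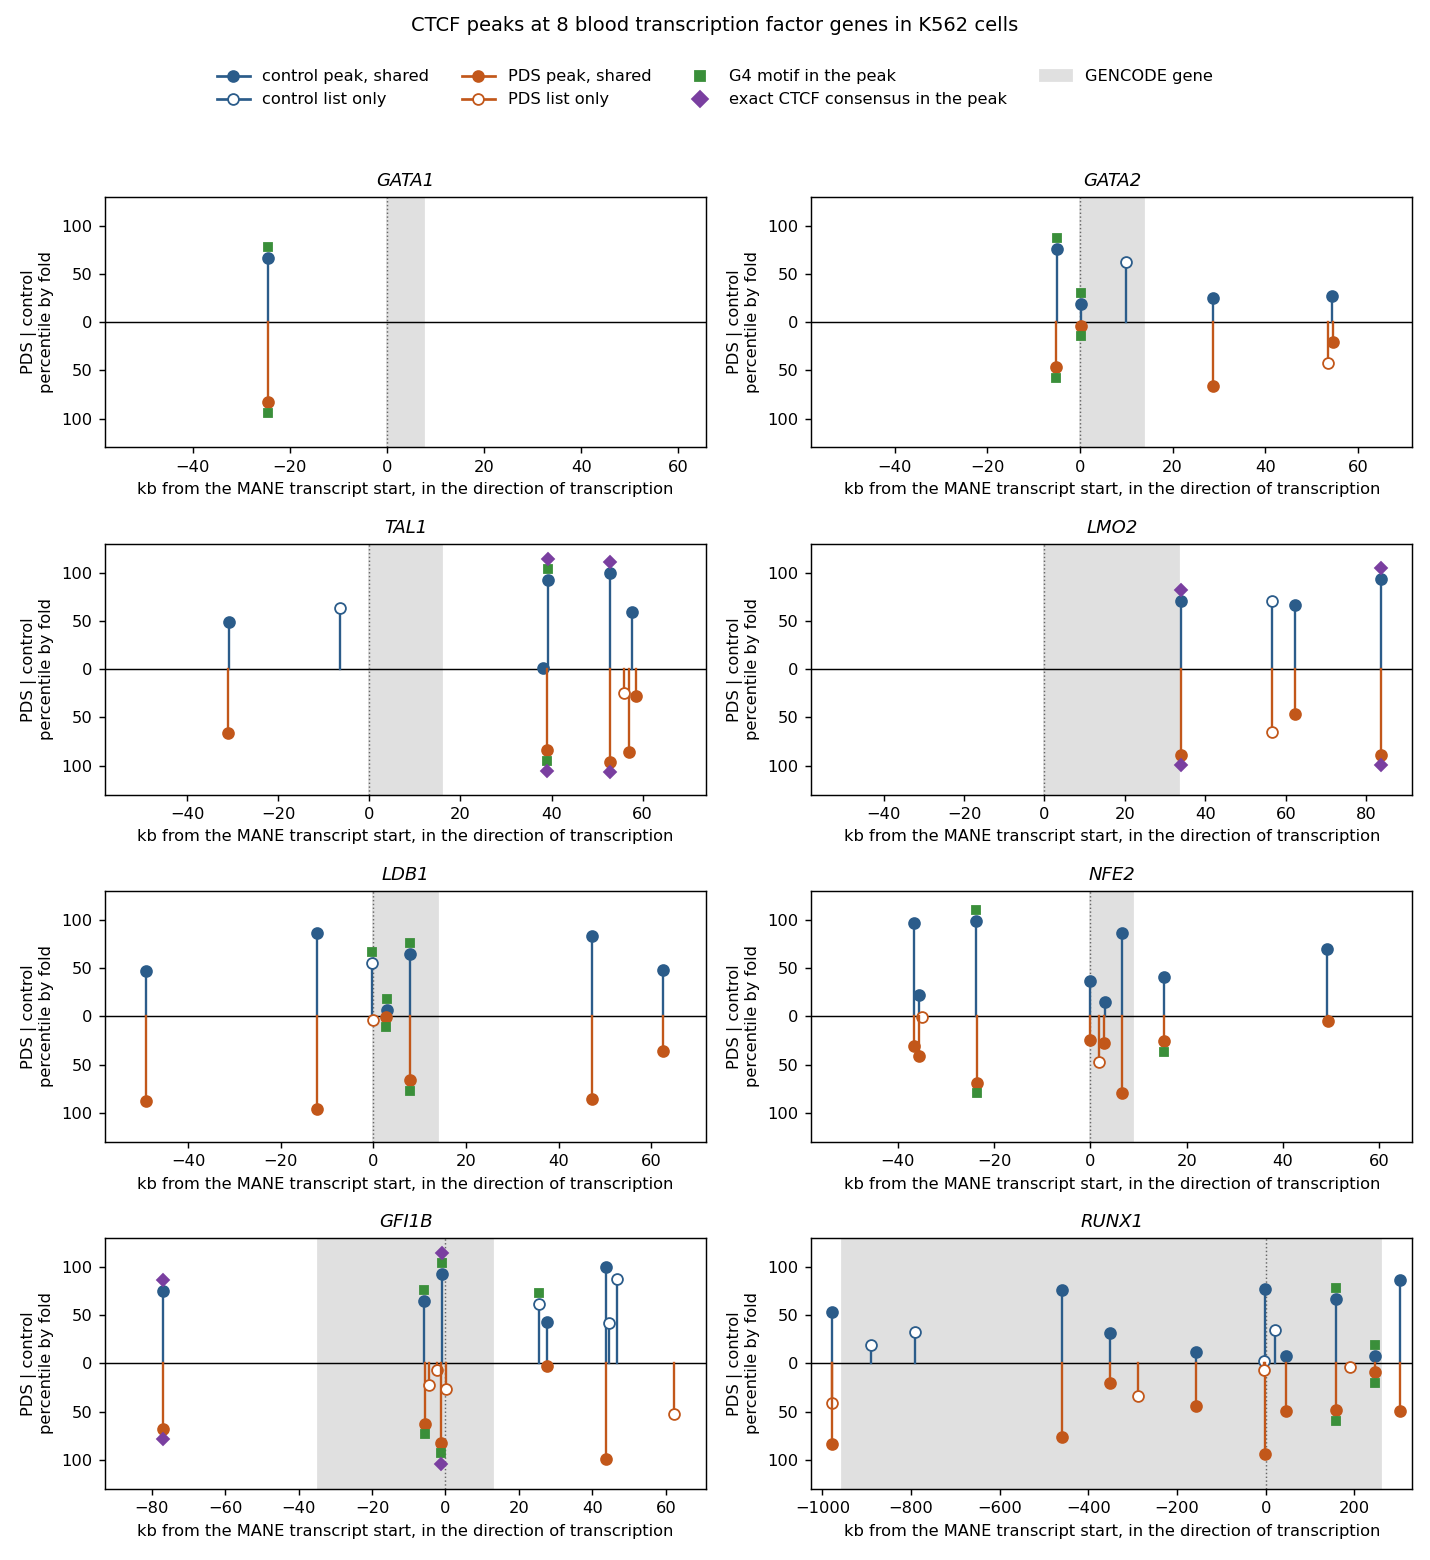
Each of the 8 panels places the CTCF peaks of 1 gene by distance from the MANE transcript start in kb (x axis), with the percentile by fold upward for the control list and downward for the PDS list (y axis). Filled circles are shared peaks, open circles peaks of 1 list, squares and diamonds mark a G4 motif and an exact consensus, and the grey band is the gene; GATA1 has a single site at -24.5 kb, whereas RUNX1 has 13 peaks per list spread over more than its 1216868 bp.

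The number of peaks differed widely among the genes, from 1 at GATA1 to 13 at RUNX1 in either list, although RUNX1 had 7 when taken as its MANE transcript, an alternative added after the data were seen, and then fewer than NFE2 and GFI1B. GATA2 had 5 peaks, TAL1 6, LMO2 4 and LDB1 7 in both lists, NFE2 had 8 in control and 10 in PDS-treated cells, and GFI1B had 8 and 9. The peaks that only the PDS list held at NFE2 and GFI1B were all 100 bp wide. Over all protein-coding genes the median was 3 peaks in either list.

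**Figure D2:**
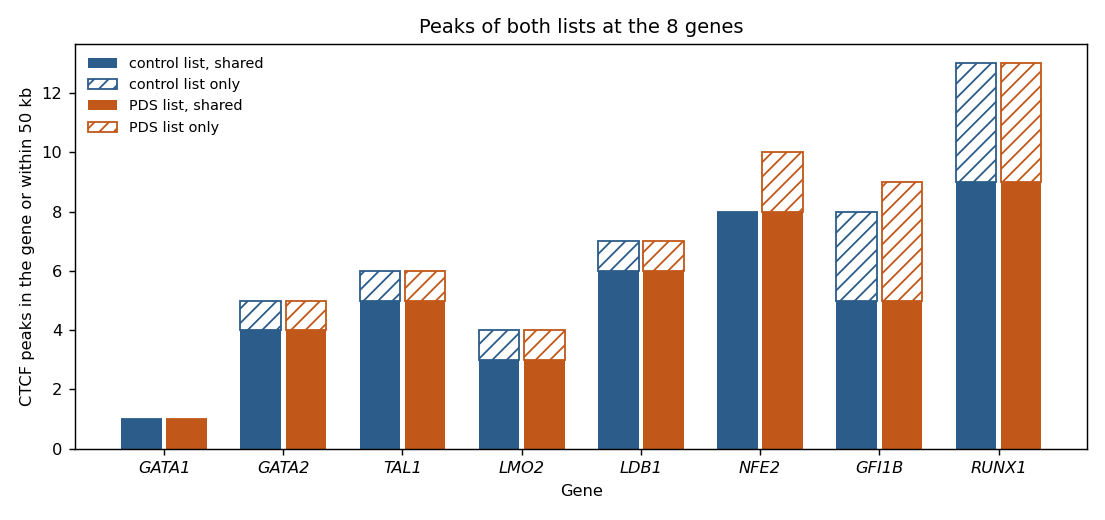
Bars give the number of CTCF peaks in the gene or within 50 kb (y axis) for each of the 8 genes (x axis), with the control list in blue and the PDS list in orange; the filled part is shared and the hatched part was found in 1 list. NFE2 is the only gene of the 8 with peaks of the PDS list only (2) and none of the control list only.

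GATA1 (chrX:48644948-48652718), the master regulator of red cell differentiation, had no peak within the gene. Its only site within 50 kb lay at -24.5 kb, in the neighbouring gene GLOD5, where the control peak chrX:48620281-48620640 was intronic and the wider PDS peak chrX:48620201-48620750 also reached into coding sequence. The site ranked 11123 by fold in the control list (fold 32.7, percentile 66.4) and 5677 in the PDS list (fold 25.2, percentile 82.8). By p-value it moved the other way, from a percentile of 92.9 to 76.6. It held the G4 motif shown above, 5 bp from the centre of the control peak, and a consensus match with 1 mismatch 70 bp from it.

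GATA2 (chr3:128198270-128212044), the GATA factor of stem and progenitor cells, was flanked by its strongest control site at -4.87 kb, in the antisense gene GATA2-AS1. This peak (chr3:128216641-128217180, fold 37.9, rank 7920) held 2 G4 motifs separated by 1 base, and its PDS counterpart chr3:128216601-128217600 was 1000 bp wide and ranked 17614 by fold, but stood at a percentile of 96.5 by p-value against 77.8 in control cells. Near the start of the gene, at 0.264 kb in an intron and 5' UTR, a peak with 1 G4 motif was among the weaker of both lists (chr3:128211721-128211840, percentile 18.95, and chr3:128211701-128211900, percentile 3.75). The strongest PDS peak by fold was chr3:128183151-128183350 at 28.8 kb in an intron of DNAJB8, at a percentile of 66.1 against 25.4 for the control peak chr3:128183101-128183340. By p-value the order was the reverse, 46.4 in the PDS and 71.6 in the control list. The control list alone had an intronic peak of 120 bp at 9.92 kb (chr3:128202061-128202180, fold 30.9), 9520 bp from the nearest PDS peak. The PDS list alone had a peak of 100 bp at 53.6 kb (chr3:128158351-128158450, fold 15.5), 390 bp from a control peak. No peak of GATA2 held the exact consensus.

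TAL1 (chr1:47681962-47697897) had no CTCF peak inside the gene in either list. The same held for 50.4% of protein-coding genes in the control and 53.8% in the PDS list. The sites of TAL1 clustered downstream, between 38.2 and 58.6 kb, a side of the gene where an erythroid enhancer is also known. The strongest was at 52.9 kb, in the noncoding genes CYP4A22-AS1 and LINC00853, with a fold of 130.4 in control cells (chr1:47644801-47645220, rank 64) and 36.4 in PDS-treated cells (chr1:47644851-47645400, rank 1358). It stood at percentiles of 99.8 and 95.9 by fold and of 92.1 and 98.7 by p-value, so it was near the top of both lists on either scale. The exact consensus was 19 bp from the centre of the control peak. A further site at 39.2 kb held an exact consensus and a G4 motif in the same peak (chr1:47658301-47659140, fold 57.8, rank 2421). The boundaries of the calls differed at this site, since 1 PDS peak of 1900 bp (chr1:47657801-47659700, fold 25.7, rank 5356) spanned this control peak and a weak one of 180 bp beside it (chr1:47659561-47659740, fold 5.86). The reverse was seen at 57.6 kb, where a control peak of 2700 bp (chr1:47638921-47641620), the widest of the 8 genes, overlapped 2 PDS peaks, chr1:47638751-47639900 and chr1:47640101-47641600. Upstream, a peak at -30.9 kb in STIL was shared, with a percentile by fold of 48.6 in control and 66.1 in PDS-treated cells, but of 83.6 and 47.1 by p-value. Of the peaks in 1 list only, the control peak chr1:47704261-47704440 at -6.45 kb (fold 31.2) lay 24160 bp from the nearest PDS peak, whereas the PDS peak chr1:47642001-47642100 (fold 12.5) lay 380 bp from a control peak.

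LMO2 (chr11:33880122-33913623), the LIM-only bridge between TAL1 and LDB1, also had all of its peaks outside the gene, on the downstream side. The strongest was chr11:33829621-33830340 at 83.6 kb, 49781 bp from the gene end and thus just inside the distance limit, with a fold of 61.3 (rank 2017). Its PDS counterpart chr11:33829601-33830350 ranked 3737 with a fold of 28.5. The nearest site, at 34.0 kb, began next to the end of the gene, 101 bp away in the control list (chr11:33879181-33880020, fold 35.0) and 321 bp away in the PDS list (chr11:33879351-33879800, fold 28.4), at percentiles of 71.0 and 88.5. Both sites held the exact consensus within 20 bp of the centre of the control peak, and no LMO2 peak held a G4 motif. At 56.5 kb, the control peak chr11:33856981-33857280 (fold 34.6) and the PDS peak chr11:33856801-33856950 (fold 19.6) were each counted as found in 1 list, although only 30 bp separated them.

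LDB1 (chr10:103866246-103880125) encodes the dimerizing cofactor that brings distant elements of this complex together. Its strongest site was at -12.3 kb, with a fold of 47.9 in control cells (chr10:103892161-103892640, rank 4390) and 37.8 in PDS-treated cells (chr10:103892201-103892650, rank 1127). At -49.2 kb, the peak chr10:103929121-103929540 stood at a percentile of 47.0 in the control list, and its PDS counterpart chr10:103929151-103929550 at 87.9. By p-value these stood at 73.6 and 66.0, again in the reverse order. Peaks within the gene carried G4 motifs, at 7.95 kb (chr10:103872001-103872360, fold 31.9, and chr10:103872101-103872350, fold 19.9) and at 2.81 kb (chr10:103877161-103877460, fold 9.49, and chr10:103877201-103877600, fold 4.77). The latter PDS peak had the lowest fold of all 55 and a percentile of 0.280. At the start of the gene, a PDS peak of 100 bp covered the transcript start (chr10:103880101-103880200, fold 7.14), and a control peak of 120 bp with 1 G4 motif lay 80 bp further upstream (chr10:103880281-103880400, fold 28.3). These were counted as found in 1 list each. Both were weak by p-value, at percentiles of 2.88 and 5.20.

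NFE2 (chr12:54685895-54694799) had the densest set of sites of the 8 genes. Its strongest control peak, chr12:54718321-54718740 at -23.7 kb in a transcript of COPZ1, had a fold of 92.3 (rank 375) and 1 G4 motif. The PDS counterpart chr12:54718151-54718700 had a fold of 20.7 (rank 10194). A neighbouring intronic peak of COPZ1 at -36.6 kb differed more in rank, with a fold of 74.1 in control cells (chr12:54731281-54731520, rank 951) and of 13.7 in PDS-treated cells (chr12:54731301-54731650, rank 22816). By p-value, however, this peak stood at a percentile of 41.8 in the control and 77.0 in the PDS list. Within NFE2, the intronic peak at 6.51 kb was among the stronger of both lists (chr12:54687961-54688620, fold 47.0, percentile 86.0, and chr12:54688001-54688600, fold 24.0, percentile 79.7), and the latter was the highest-ranking PDS peak of the gene. The start of the MANE transcript was covered in both lists, by chr12:54694741-54695040 (fold 22.7, percentile 36.8) and chr12:54694751-54695000 (fold 12.5, percentile 24.9). Transcripts of COPZ1 on the opposite strand begin in the same interval, so the peak belongs to a divergent pair of starts. A weaker control peak, chr12:54691561-54692100 (fold 14.3), covered the start of another NFE2 transcript, while the PDS peak there, chr12:54691751-54692100 (fold 13.2), did not. At 15.2 kb in HNRNPA1, the PDS peak chr12:54679451-54679800 held a G4 motif that the narrower control peak chr12:54679441-54679620 did not include. The 2 peaks of the PDS list only, chr12:54693001-54693100 (fold 16.3) and chr12:54729601-54729700 (fold 5.39), were 100 bp wide and lay 900 and 500 bp from a control peak.

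GFI1B (chr9:135819387-135867074) had the strongest CTCF site of the 8 genes in both lists. At 43.8 kb, between GFI1B and GTF3C5, the control peak chr9:135897541-135898140 had a fold of 149 (rank 31) and the PDS peak chr9:135897551-135898150 a fold of 47.1 (rank 373). Both calls were 600 bp wide, and by p-value they stood at percentiles of 92.4 and 91.7. The site held no G4 motif within 1 kb, and its consensus matches had 1 mismatch each, on opposite strands. Just upstream of the MANE start, at -0.941 kb, the peak chr9:135852841-135853440 (fold 57.9, rank 2406) combined an exact consensus with a G4 motif, and its PDS counterpart chr9:135852501-135853450 ranked 5917 (fold 24.9). These stood at percentiles of 94.2 and 96.4 by p-value. A further site with a G4 motif at -5.92 kb was shared (chr9:135847801-135848520, fold 31.8, and chr9:135847801-135849150, fold 19.2), as was the site with an exact consensus at -76.8 kb in TSC1 (chr9:135776881-135777660, fold 37.4, and chr9:135776701-135777600, fold 20.3). GFI1B also had peaks found in 1 list, 3 in control and 4 in PDS-treated cells. In the control list these were chr9:135900841-135901020 (fold 48.5), chr9:135879541-135879720 (fold 30.7, with 1 G4 motif) and chr9:135898501-135898620 (fold 24.2), all downstream of the gene. In the PDS list they were chr9:135916101-135916200 (fold 17.1), in GTF3C5, and chr9:135854251-135854350 (fold 12.9), chr9:135849451-135849550 (fold 11.9) and chr9:135851851-135851950 (fold 8.08), around the MANE start and within 1 kb of shared peaks. All 4 PDS peaks had the least width of their list, 100 bp.

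RUNX1 is annotated on chr21:36160098-37376965 because some transcripts start far upstream, while its MANE transcript covers chr21:36160098-36421599. The strongest PDS peak, chr21:36423301-36423950 (fold 33.5, rank 1928), and its control counterpart chr21:36423301-36423960 (fold 38.7, rank 7584) lay at -2.03 kb from the start of the MANE transcript. The strongest control peak was beyond the other end of the gene, at 304 kb (chr21:36117541-36118380, fold 47.8, rank 4418), where the PDS peak chr21:36117601-36118350 ranked 16782 with a fold of 16.6. By p-value that site moved in reverse, from a percentile of 83.6 to 91.2. An intronic site at 159 kb had 3 G4 motifs and the highest percentile by p-value of all peaks at the 8 genes. In control cells it was chr21:36262141-36262740 (fold 33.1, percentile 67.3 by fold and 99.4 by p-value, GC content 74.5%), and in PDS-treated cells chr21:36262151-36262900 (fold 16.5, percentiles 48.4 and 99.03). A second intronic peak with a G4 motif, at 248 kb, was weak in both lists (chr21:36173821-36174120, fold 10.1, and chr21:36173851-36174000, fold 8.64). The far upstream part of the annotated gene held shared sites at -156, -351 and -459 kb, of which the last stood at percentiles of 76.0 and 76.2. The peaks of the control list only were chr21:36399061-36399240 (fold 22.1), chr21:37212481-37212840 (fold 21.6), chr21:37312561-37312920 (fold 15.6) and chr21:36425821-36425940 (fold 7.34). Those of the PDS list only were chr21:37400201-37400300 (fold 15.3), chr21:36709901-36710000 (fold 14.2), chr21:36425601-36425700 (fold 7.92) and chr21:36230251-36230350 (fold 7.23). At -4.05 and -4.28 kb, 120 bp separated a PDS-only and a control-only peak. When RUNX1 was taken as its MANE transcript, an alternative added after the data were seen, 46 control and 49 PDS peaks remained at the 8 genes, of which 80.4% and 75.5% were shared.

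Peaks found in 1 list only were narrow and mostly weak by p-value at the 8 genes, as they were over the whole lists, whereas by fold the control-only peaks were not weak. The median width of the 11 control-only peaks was 180 bp and that of the 14 PDS-only peaks 100 bp, against 480 and 550 bp for shared peaks at the same genes. Over the whole lists the medians of peaks in 1 list only were also 180 and 100 bp. Of the PDS-only peaks, 13 had the least width in their list (100 bp), as did 4 of the control-only peaks (120 bp), against 60.3% of all PDS-only and 39.9% of all control-only peaks. Their median percentile by p-value was 16.9 in the control and 12.6 in the PDS list, against 69.9 and 71.7 for shared peaks at these genes and 19 and 15.3 for all peaks in 1 list only. By fold, the control-only peaks had a median percentile of 55.5, against 64.8 for shared peaks at these genes and 31.6 for all control-only peaks. The PDS-only peaks stood at 25.5, against 62.5 for shared peaks and 27.7 for all PDS-only peaks. The lists differed in where these peaks lay. Of the 14 PDS-only peaks, 11 had a control peak within 1 kb, which left 3, at GFI1B and RUNX1, farther away. Of the 11 control-only peaks, 4 had a PDS peak within 1 kb and 7 did not. Among all peaks in 1 list only, the nearest peak of the other condition was more than 1 kb away for 39.8% in the PDS and 77.0% in the control list. None of these peaks at the 8 genes held an exact consensus (0 of 11 and 0 of 14), which was present in 10.5% of all control-only and 1.37% of all PDS-only peaks. A G4 motif was present in 2 control-only peaks, at GFI1B and LDB1, and in 0 PDS-only peaks, against 5.34% and 5.89% over the lists. The absence of a call in a list is not evidence that CTCF was absent from the site.

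At 38 sites of the 8 genes, 1 control peak overlapped 1 PDS peak and no other, out of 24633 such pairs in the lists. The percentile by fold differed by a median of -4.60 points (PDS minus control, quartiles -14.4 and 15.5), against 0.69 points (quartiles -18.5 and 20.6) over all pairs. A pair stood over 25 points higher in the PDS list at 5 sites (13.2%, against a background of 21.2% of all pairs) and over 25 points lower at 6 sites (15.8%, against 19.7%). The 5 sites were at GATA2 (28.8 kb, by 40.7 points), RUNX1 (47.0 kb by 41.4, -156 kb by 31.9 and -979 kb by 29.6) and LDB1 (-49.2 kb, by 40.9). The 6 lower sites were at NFE2 (-36.6, 49.1 and -23.7 kb, with changes of -66.4, -64.3 and -29.8 points), GFI1B (27.7 kb, -40.2), RUNX1 (304 kb, -37.6) and GATA2 (-4.87 kb, -29.6). Ranked by p-value, the same 38 pairs had a median change of -1.07 points, against 2.31 over all pairs. The changes by fold and by p-value had the same sign at 13 of the 38 pairs (34.2%), against 37.8% of all pairs. No pair of the 8 genes passed 25 points in the same direction by both. This was also rare over all 24633 pairs, with 229 higher and 154 lower in the PDS list. No direction of change in CTCF binding at these genes therefore follows from the ranks, which also have no replicate error. The PDS peak was wider at 19 pairs (50.0%, against 49.6% of all pairs), the control peak at 18, and the widths were equal at 1.

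**Figure D3:**
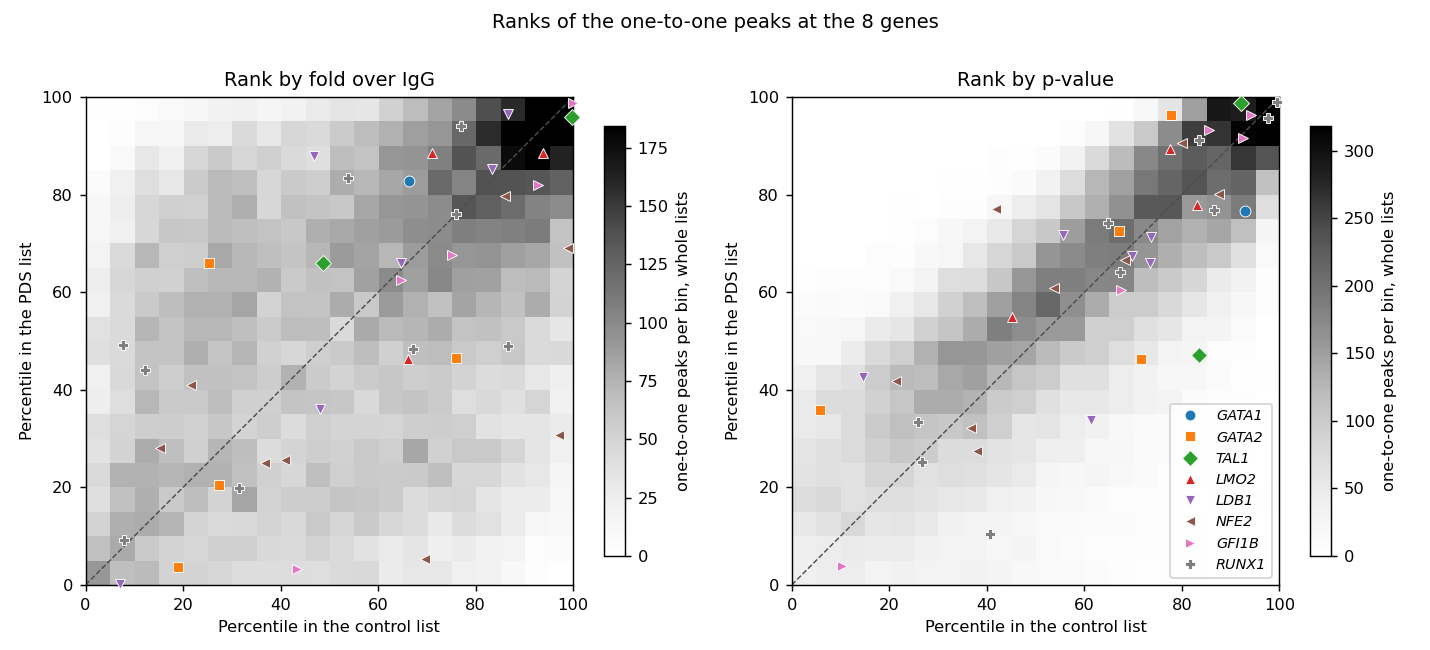
Percentiles of the 38 one-to-one peaks at the 8 genes in the control list (x axis) and the PDS list (y axis), ranked by fold (left) and by p-value (right), over the number of all 24633 pairs per bin of 5 points (grey). The dashed line marks equal rank; the NFE2 peak at -36.6 kb is at 97.1 and 30.7 by fold but at 41.8 and 77.0 by p-value.

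Per 100 kb of gene and flanks, NFE2 had 7.35 control and 9.18 PDS peaks, more than 95% and 96.3% of protein-coding genes. LDB1 (6.15 in both lists), GFI1B (5.42 and 6.09), TAL1 (5.18) and GATA2 (4.39) followed, and LMO2 had 3. GATA1 (0.928) lay below the median of all protein-coding genes, 2.04 in the control and 1.97 in the PDS list. RUNX1 had 0.987 over its annotated span but 1.94 in both lists over its MANE transcript and flanks, next to those medians. A single site at GATA1 was not unusual, as 26.0% of protein-coding genes had at most 1 control peak within 50 kb. Peaks that overlapped a gene itself ranked lower by fold than those in its flanks, with a median percentile of 33.8 (n = 20) against 66.2 (n = 32) in the control list and 28.1 (n = 23) against 58.5 (n = 32) in the PDS list. By p-value the medians were 58.5 in the genes and 69.1 in the flanks for control cells, a smaller gap than by fold, and 33.8 and 67.1 for PDS-treated cells. Without RUNX1 the control medians were close, 62.5 (n = 9) and 66.2 (n = 30), while the PDS medians were 26.5 (n = 13) and 64.7 (n = 29). In the whole lists, peaks in any protein-coding gene had a median percentile of 49.0 in the control and 48.0 in the PDS list, and peaks in none 51.3 and 52.6.

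**Figure D4:**
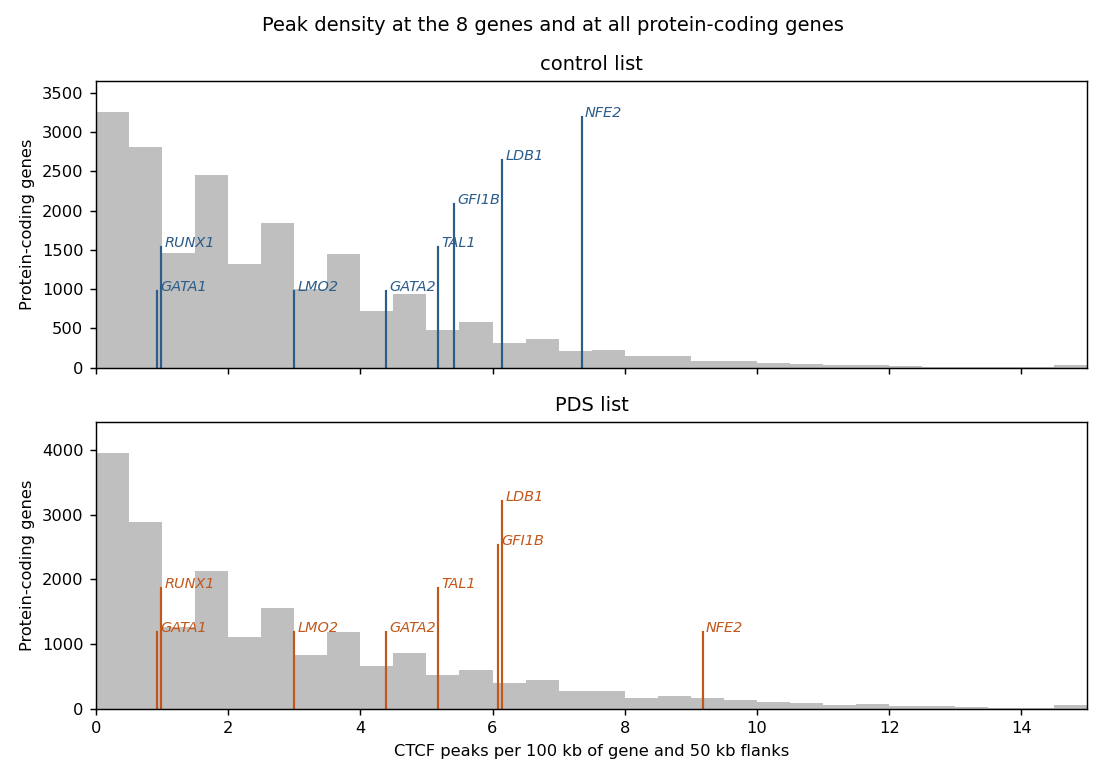
Grey bars count protein-coding genes (y axis) by the number of CTCF peaks per 100 kb of gene and 50 kb flanks (x axis) in the control list (top) and the PDS list (bottom), with all genes at 14.5 or more in the last bar. Coloured lines mark the 8 genes, whose height has no meaning; GATA1 and RUNX1, the latter over its annotated span, lie at the left, and NFE2 moves from 7.35 to 9.18.

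Among 25 partners and related blood factors, each had at least 1 peak in both lists, as did most genes, since 13.3% of protein-coding genes had no control peak and 16.3% no PDS peak within 50 kb. The median was 5 peaks in the control and 6 in the PDS list, against 6.5 in both for the 8 genes. Per 100 kb of gene and flanks the medians were farther apart, 2.32 and 2.92 against 4.79 in both lists for the 8 genes. Of the 151 control peaks at the 25 factors 127 were shared (84.1%, interval 77.4 to 89.1%), against 78.0% of the list. Of their 146 PDS peaks 125 were shared (85.6%, interval 79.0 to 90.4%), against 78.6%. A G4 motif was present in 41 control peaks (27.2%, interval 20.7 to 34.7%) and 40 PDS peaks (27.4%, interval 20.8 to 35.1%), against 16.0% and 17.1% over the lists. These intervals treat peaks as independent, which peaks of the same gene are not. The most peaks were found at SSBP4 (14 and 15), which encodes a stabilizing partner of LDB1, ZFPM1 (12 and 12), which encodes the GATA1 cofactor FOG1, and LYL1 (12 and 11), the closest relative of TAL1. The fewest were at GFI1, the paralogue of GFI1B, and at the repressor ETV6, with 1 peak in each list. SSBP2, a further LDB1 partner, had 3 control peaks and 1 PDS peak, none of them shared.

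The limit of 50 kb was not a natural gap. Between 40 and 50 kb from a gene there were 7 control and 10 PDS peaks, with median folds of 29.7 and 16.9, and within a further 10 kb there were 4 and 4, with median folds of 35.0 and 21.9.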

How the data were processed

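Reads of the 7 samples were aligned by the authors to hg19 with Bowtie2 2.2.3, filtered for unique and well mapped reads, and peaks were called with PePr once per condition on both CTCF replicates over IgG. The fold of each peak, an enrichment over IgG and hence a ratio, and its p-value were deposited as the authors computed them, with no normalization added here. No p-value exceeded 1.00e-05 in either list, and positions were multiples of 60 bp in the control and 50 bp in the PDS list. The score column was not used. The depth of each sample is unknown, so Wilson 95% intervals of shares cover the counting of peaks only. The labels describe single-end reads of a HiSeq 1500 and the methods paired-end reads of a HiSeq 2500, and only 1 IgG sample of control cells is among the samples.

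Genes were taken from GENCODE 44 lifted to GRCh37, whose sequence was searched for motifs. The 8 genes and the 25 related factors were chosen with earlier results of these data known. Peaks were named by rule: those over a transcription start, the strongest by fold in each list, those with a G4 motif or exact consensus (up to 5 a gene), and those in 1 list only (up to 4 a gene). Other peaks named, at one-to-one sites, at splits and by distance, were chosen after their values were seen. No comparison had replicate values, so no test was made. Motif search was tested on simulated A/T sequence and found all 200 planted G4 motifs and all 200 planted exact consensus matches. Matches with 1 mismatch and GC-rich sequence were not simulated. All 800 simulated overlap queries gave the same result as a direct comparison of all intervals. Alternatives covered the distance, the definition of a shared peak, the motifs and the stringency of the lists. Values were computed in Python 3.11.15 (pandas 2.3.3, numpy 2.4.6, matplotlib 3.10.9, scipy 1.17.1). The other experiments of the study were not analysed here. The motif sequences printed are a selection, and the others are not reported here.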

Additional observations from a re-analysis of the deposited data

How the results depend on the processing

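Of 84 values under alternatives, 55 stayed within 1.5 times the reported count or density or within its interval, and 29 moved. Whether a direction reversed was not assessed. The number of peaks at the 8 genes in the control and the PDS list was 20 and 23 with peaks that overlap the gene itself, 25 and 26 within 10 kb, 82 and 91 within 100 kb, and 31 and 29 among the 50% of each list with the smallest p-values. The shared share was 53.8% (control) and 50.9% (PDS) with centres at most 100 bp apart. It was 83.9% and 93.1% among the 50% with the smallest p-values, and 86.5% and 94.5% where a gap of up to 1 kb was allowed. The shares of the whole lists under these settings were not computed. The share with a G4 motif was 84.6% and 78.2% with runs of 2 or more G, for which no whole-list share was computed. With a motif in the peak or within 1 kb it was 53.8% and 49.1%, against 43.8% and 46.8% over the whole lists. With the whole motif inside the peak it was 21.2% and 20.0%. For the PDS list it was 34.6% within 10 kb of the genes and 12.7% in the 200 bp at the peak centre. The share with the consensus was 5% and 4.35% in peaks that overlap the gene itself and 61.5% and 47.3% with at most 1 mismatch. The median percentile by fold, 62.2 (control) and 46.5 (PDS) in the main setting, was 33.8 and 28.1 for peaks that overlap the gene itself and, in the control list, 40.9 within 10 kb. Wider windows and looser motifs find more by construction, and for the other changes the cause was not tested. Taking RUNX1 as its MANE transcript, added after the data were seen, gave 7 peaks at RUNX1 and 1.94 per 100 kb in both lists, against 13 and 0.987, since the span is shorter, and moved none of the values over the 8 genes together. No paired analysis was possible because the replicates of a condition were merged in a single call, and leaving out a replicate gives no value for the same reason. The treatment, the IgG samples and the step of the positions differ between the lists together and cannot be told apart, and how many IgG samples stand behind the control folds is not known here.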

Other observations

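A stretch of 18 bases, ggtctagcggtaatgcca, was present beside a 1-mismatch consensus match at both GFI1B (46.8 kb, in the control-only peak chr9:135900841-135901020) and LDB1 (62.5 kb, in the shared peak chr10:103817521-103817760). It was the longest stretch common to any pair of the consensus windows of different genes. The GRCh37 sequence held it 27 times on either strand, of which 5 (18.5%) lay in a control peak and 3 (11.1%) in a PDS peak. These counts include the peaks in which it was found. The next longest, 17 bases (aggtggcgatgttgccc), included part of the consensus match of the strongest site of GFI1B (43.8 kb) and of the LDB1 site at -49.2 kb. It occurred 2 times in the genome, only at these sites. That both lay in peaks of both lists follows from how the stretch was found. These stretches were looked for after the sequences had been seen, and what they derive from was not tested.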
